A study of Mus musculus with 6 samples.

Results

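Goblet cell and absorptive colonocyte transcripts were followed in cells sorted from the myenteric plexus, the nerve network in the muscle wall of the mouse colon. The set was 10 genes out of 18193 measured by probe sets with a single gene symbol. They were the goblet genes Muc2, Tff3, Fcgbp, Agr2 and Zg16 and the absorptive or general epithelial genes Car1, Car4, Slc26a3, Epcam and Vil1. All 18 probe sets of the array whose only symbol was one of these names were used, out of 45101 probe sets. The rule took names and no measured value, and it combined goblet genes on one side with absorptive and general epithelial genes on the other.

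The data came from 3 libraries labelled Mapt-EGFP+ colonic neurons and 3 labelled Mapt-EGFP- myenteric cells, all sorted by flow cytometry from mice of the strain Mapttm1(EGFP)Klt/J. In this strain EGFP is expressed from Mapt, the gene of the microtubule protein tau, so the sort rests on activity of a neuronal locus and both sorted groups carry the same allele. A laparotomy with injection of labelled cholera toxin subunit B into the celiac ganglion preceded the sort by 3 to 4 days in all mice. Each library pooled cells of 2, 4 or 6 mice, and the labels do not say which library held which number; age, sex and zygosity are not given in the sources used here. About 50 ng of total RNA per library was hybridised to Affymetrix mouse genome arrays. Triplets of values are deposited log2 values of replicates 1, 2 and 3.

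The colon epithelium is a single cell layer on the mucosal side of the gut, separated from the myenteric plexus by the lamina propria, the submucosa and a muscle layer. Goblet cells secrete the mucus gel and the proteins packed with it, while absorptive colonocytes exchange ions and water across a brush border. Neither cell type is a resident of the myenteric plexus. In pooled cells, fewer cells of a type and less RNA per cell cannot be told apart.

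The library labels were checked with 11 measured pan-neuronal genes, among them Mapt. Mapt read 1.43, 1.32 and 5.55 in EGFP-positive libraries, against 1.44, 1.64 and 1.38 in EGFP-negative libraries. The background, taken from 3 probe sets for a bacterial transcript that was not added (TrpnX), was 1.00 to 1.48. The neuronal marker Mapt therefore stood above background in EGFP-positive replicate 3 and not in EGFP-positive replicates 1 and 2. EGFP is expressed from Mapt in this strain, and the effect of that allele on Mapt readings was not tested. The 11 pan-neuronal genes averaged 2.60, 2.52 and 6.14 in EGFP-positive libraries, against 2.72, 2.91 and 3.25 in EGFP-negative libraries. Directions below therefore refer to labels. Between 6182 and 7621 probe sets per library exceeded a log2 value of 6 and the fewest did so in EGFP-negative replicate 1.

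Upstream sequence is shown for 4 members, since Muc2 and Agr2 had similar profiles over the 6 libraries and Slc26a3 and Epcam stand for the absorptive and the general epithelial genes. RefSeq windows (GRCm38.p6) were matched by symbol for 7 of the 10 members, and Tff3, Zg16 and Car1 had no single window. The 250 bases before the annotated start are given 5′ to 3′ on the plus strand, at chr7:141690090-141690339 for Muc2, chr12:35992675-35992924 for Agr2, chr12:31437969-31438218 for Slc26a3 and chr17:87635729-87635978 for Epcam. Capitals mark matches to the letters searched for CDX, HNF4, HNF1, KLF and TATA, which the next paragraph describes.
Muc2: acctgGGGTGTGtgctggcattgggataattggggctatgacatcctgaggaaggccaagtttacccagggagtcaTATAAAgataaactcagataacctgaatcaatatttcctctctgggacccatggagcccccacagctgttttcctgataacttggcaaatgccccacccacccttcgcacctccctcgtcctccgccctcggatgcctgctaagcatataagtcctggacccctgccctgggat
Agr2: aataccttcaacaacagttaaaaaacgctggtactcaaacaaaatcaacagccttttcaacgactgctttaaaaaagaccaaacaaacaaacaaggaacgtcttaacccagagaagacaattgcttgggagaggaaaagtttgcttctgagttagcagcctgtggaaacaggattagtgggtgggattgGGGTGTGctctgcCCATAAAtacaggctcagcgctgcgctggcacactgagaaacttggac
Slc26a3: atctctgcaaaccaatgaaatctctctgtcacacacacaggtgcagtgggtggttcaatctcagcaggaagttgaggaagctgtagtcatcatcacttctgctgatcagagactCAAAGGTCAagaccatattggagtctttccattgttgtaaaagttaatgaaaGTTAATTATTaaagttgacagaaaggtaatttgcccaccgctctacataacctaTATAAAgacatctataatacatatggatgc
Epcam: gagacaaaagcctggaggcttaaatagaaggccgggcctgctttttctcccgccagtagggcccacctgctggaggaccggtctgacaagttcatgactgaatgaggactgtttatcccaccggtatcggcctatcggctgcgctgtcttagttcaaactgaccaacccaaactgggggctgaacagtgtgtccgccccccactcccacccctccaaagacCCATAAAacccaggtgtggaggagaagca

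Letters for 11 motifs of factors known from gut epithelium, or of general promoters, were searched on both strands of the 250 bases in 7 members and in 32851 windows of the same length. CCATAAA, a form of the motif of the intestinal factor family CDX, stood in 2 of the 7 member windows and in 2.43% of all windows. It began 48 bases before the start of Agr2 and 29 bases before that of Epcam. The other CDX form searched, TTTATTG, stood in 0 of 7 and in 4.20% of all windows. For KLF factors GGGTGTG stood in 3 of 7, those of Muc2, Agr2 and Fcgbp, and in 6.93% of all windows, and in Agr2 and Fcgbp a match began 61 bases before the start. Slc26a3 alone among the 7 held CAAAGGTCA, a form of the motif of the nuclear receptor HNF4 (0.426% of all windows). It alone also held the letters searched for HNF1 (0.371% of all windows), which are a shortened form of the HNF1 consensus. In the printed Slc26a3 sequence they are the capitals between those of HNF4 and TATA, and the full HNF1 consensus was not searched. The second HNF4 form, CAAAGTCCA, stood in 0 of 7 and in 0.384% of all windows. For a TATA box TATAAA stood in 2 of 7 and in 12.4% of all windows, 30 bases before the start of Slc26a3 and 174 bases before that of Muc2.
In Muc2 the TATA match shared a base with 1 of 2 matches to the GATA letters AGATAA, which stood in 1 of 7 member windows and in 9.99% of all windows. The E-box CAGCTG was in the windows of Muc2 and Fcgbp and in 13.0% of all windows. For ETS factors ATCCTG was in those of Muc2 and Agr2 and in 13.6% of all windows. The FOXA letters TGTTTAC were in 0 of 7 and in 3.17% of all windows. These matches describe letters in the windows.

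Transcripts of mucosal epithelium were present in libraries of both labels, and each of the 10 genes exceeded a log2 value of 6 in at least 1 library. Their levels varied more between libraries of one label than between the labels. The range over the 6 libraries was 3.10 (Epcam) to 6.77 log2 units (Fcgbp), against a median range of 0.79 over all genes, and all 10 had a range of at least 2, against 12.5% of all genes. None of the 10 had groups that did not overlap, where 9.11% of all genes had such groups. None passed limma's Benjamini-Hochberg adjusted p of 0.05, and 0 of 18193 genes did (0%). At an unadjusted p under 0.05, 0 members and 893 of all genes (4.91%) passed. With the replicate number as a block, 1 member, Car4 (unadjusted p = 0.00188, limma adjusted p = 0.661), and 1345 of all genes (7.39%) passed the unadjusted threshold.

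Muc2, the gel-forming mucin of the colon, read 10.60, 8.80 and 5.91 in EGFP-positive libraries, against 5.30, 9.20 and 6.94 in EGFP-negative libraries. The highest value lay in EGFP-positive replicate 1 and the lowest in EGFP-negative replicate 1, with the groups overlapping. The log2 difference was 1.29 (95% interval -2.46 to 5.04, limma adjusted p = 1.00).

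Fcgbp, a mucus protein named for its binding to the Fc part of IgG, read 8.62, 7.31 and 1.84 in EGFP-positive libraries, against 3.48, 7.95 and 5.41 in EGFP-negative libraries. It followed the order of Muc2 at the top, with EGFP-positive replicate 1 first and EGFP-negative replicate 2 next. Its lowest value, in EGFP-positive replicate 3, was close to background. The log2 difference was 0.31 (interval -4.85 to 5.47).

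Tff3, a trefoil peptide secreted with mucus, read 10.57, 9.06 and 5.65 in EGFP-positive libraries, against 8.66, 10.02 and 7.61 in EGFP-negative libraries. Agr2, an endoplasmic reticulum protein of the disulfide isomerase family that mucin production requires, read 8.54, 8.06 and 5.26, against 6.40, 8.51 and 6.60. For both genes EGFP-positive replicate 1 and EGFP-negative replicate 2 held the highest values and EGFP-positive replicate 3 the lowest. The log2 differences were -0.33 (interval -3.74 to 3.07) for Tff3 and 0.11 (interval -2.48 to 2.71) for Agr2. The second Agr2 probe set was dimmer and kept the extremes, at 4.22, 3.58 and 1.38 in EGFP-positive libraries, against 2.66, 3.36 and 2.26 in EGFP-negative libraries.

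Zg16, a secreted lectin of goblet cells that binds Gram-positive bacteria, had 3 probe sets that disagreed in a single library. The brightest, an _x_at set, read 12.00, 10.48 and 6.74 in EGFP-positive libraries, against 11.75, 11.25 and 8.67 in EGFP-negative libraries. The _s_at set read 11.39, 10.25 and 5.93, against 8.09, 10.84 and 8.29. The _at set read 9.74, 8.68 and 4.21, against 6.77, 9.38 and 7.06.
The brightest probe set exceeded the _s_at set by 3.66 in EGFP-negative replicate 1, and by 0.23 to 0.81 in the other 5 libraries. In the 2 other probe sets EGFP-negative replicate 1 thus lay among the low libraries for Zg16, as it did for Muc2, while in the brightest it lay near the top. The log2 differences were -0.82, 0.12 and -0.20 in the order given, so the sign for Zg16 depended on the probe set, and the suffix _x_at marks probe sets whose probes may also bind other transcripts.

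**Figure D1:**
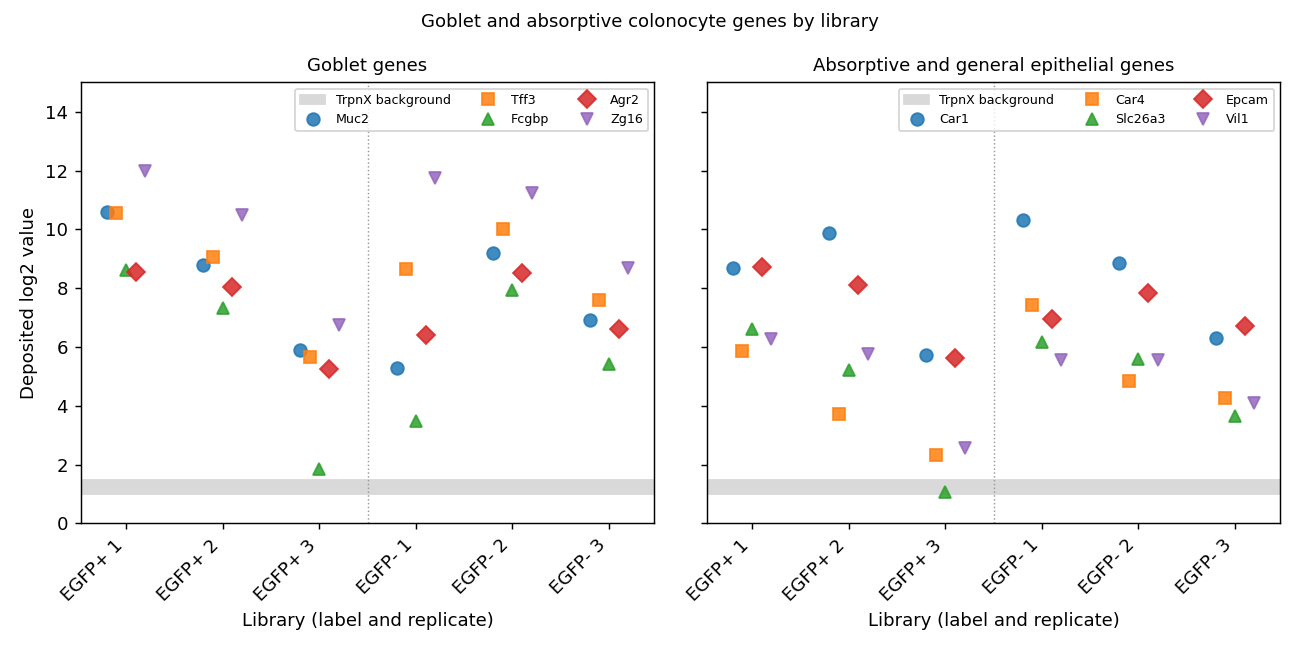
Deposited log2 values (y axis) of the 10 genes in each library (x axis), 1 point per gene and library, with each gene shown by its brightest probe set; the grey band is the TrpnX background of 1.00 to 1.48. Values in EGFP-positive replicate 3 are the lowest of the 6 libraries for 9 of the 10 genes, and Muc2 and Fcgbp are low in EGFP-negative replicate 1 where Car1 and Car4 have their highest values.

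Among the absorptive genes, the carbonic anhydrases had their highest values in EGFP-negative replicate 1. Car1, a cytosolic enzyme of the colonocyte, read 8.68, 9.88 and 5.74 in EGFP-positive libraries, against 10.31, 8.86 and 6.31 in EGFP-negative libraries. Car4, anchored to the cell surface, read 5.87, 3.72 and 2.33, against 7.43, 4.84 and 4.27. Its second probe set followed the same order, at 5.08, 2.91 and 1.81 in EGFP-positive libraries, against 6.21, 4.47 and 4.03 in EGFP-negative libraries. Car4 was the 1 member lower in the EGFP-positive library in all 3 same-numbered pairs, by 1.56, 1.12 and 1.94 for pairs 1, 2 and 3, a direction that 16.2% of all genes had in all 3 pairs. The groups overlapped, and the log2 difference of -1.54 (interval -4.54 to 1.45) did not pass (limma adjusted p = 1.00). For Car1 it was -0.39 (interval -3.98 to 3.19).

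Slc26a3, the chloride-bicarbonate exchanger of the apical membrane, had 4 probe sets of which 1 stayed at 0.88 to 1.06 in all libraries, at or under background. The brightest, an _s_at set, read 6.60, 5.21 and 1.07 in EGFP-positive libraries, against 6.17, 5.60 and 3.67 in EGFP-negative libraries. The _a_at set read 4.23, 3.22 and 1.03, against 1.68, 2.17 and 1.07. The other _at set read 3.52, 3.28 and 1.90, against 3.44, 4.03 and 2.61.
All 3 detected probe sets had their lowest value in EGFP-positive replicate 3, and their log2 differences ran from -0.85 to 1.19, so the sign for Slc26a3 depended on the probe set as well. None of the 18 probe sets passed when all 45037 probe sets other than array controls were tested, and 0 of those (0%) did.

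The general epithelial genes spanned a smaller range. Epcam, the adhesion molecule of epithelial cells, read 8.72, 8.10 and 5.63 in EGFP-positive libraries, against 6.97, 7.82 and 6.73 in EGFP-negative libraries. Vil1, the villin that bundles actin in microvilli, read 6.29, 5.77 and 2.57, against 5.57, 5.57 and 4.09. Both were highest in EGFP-positive replicate 1 and lowest in EGFP-positive replicate 3. The log2 differences were 0.31 (interval -1.82 to 2.44) for Epcam and -0.20 (interval -2.88 to 2.48) for Vil1. The second Epcam probe set, an _x_at set, varied little, at 6.54, 6.48 and 5.80 in EGFP-positive libraries, against 6.56, 6.25 and 6.32 in EGFP-negative libraries.

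**Figure D2:**
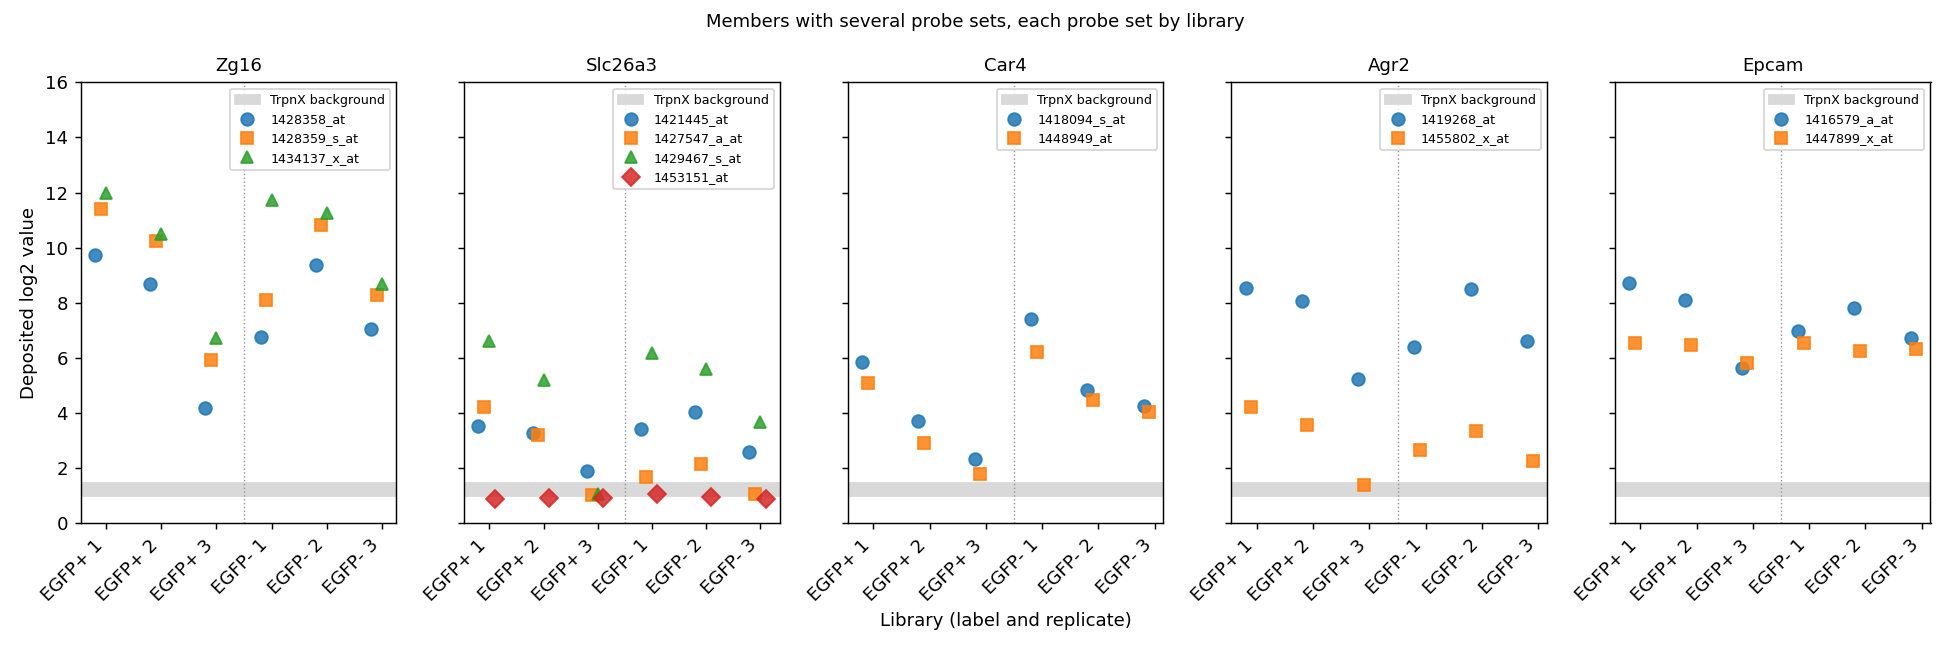
Deposited log2 values (y axis) of every probe set of the 5 members that have several, by library (x axis), 1 point per probe set and library; the grey band is the TrpnX background. The Zg16 probe sets separate in EGFP-negative replicate 1, where the _x_at set reads 11.75 and the others 8.09 and 6.77, while the 2 Car4 probe sets give the same order of libraries.

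The labels therefore did not order the members, and the same-numbered pairs pointed different ways. In pair 1 the EGFP-positive library was higher for 8 of the 10 genes, against 51.7% of all genes, and Muc2 and Fcgbp differed by 5.30 and 5.14. In pair 2 it was lower for 7 of 10, against 55% of all genes, and the members' differences ran from -1.12 (Car4) to 1.02 (Car1). In pair 3 it was lower for all 10, against 55.4% of all genes, by 0.57 (Car1) to 3.57 (Fcgbp). EGFP-positive replicate 1 was the highest library for 8 members, against 15.1% of all genes, and EGFP-negative replicate 1 for the other 2, Car1 and Car4, against 18.7%. EGFP-positive replicate 3 was the lowest library for 9 members, against 22.4% of all genes.

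Goblet genes were then set against the absorptive and general epithelial genes within each library. Since levels of different probe sets are not comparable, each gene was first centred on its own mean over the 6 libraries. The goblet genes deviated on average by 2.16, 0.84 and -2.83 in EGFP-positive libraries, against -0.79, 1.48 and -0.86 in EGFP-negative libraries. The absorptive and general genes deviated by 1.22, 0.52 and -2.55, against 1.28, 0.53 and -1.0. Both sets thus stood above their mean in EGFP-positive replicates 1 and 2 and in EGFP-negative replicate 2, and below it in both replicates 3. In EGFP-negative replicate 1 the average of the goblet genes was below and that of the others above the mean. The goblet average there came mostly from Muc2 (-2.49) and Fcgbp (-2.29), with Agr2 at -0.83, while Tff3 (0.06) and Zg16 (1.60) stood above their means. Among the others, Epcam (-0.36) stood below its mean and Car1, Car4, Slc26a3 and Vil1 above theirs.
The goblet deviation minus the other deviation was 0.94, 0.31 and -0.28 in EGFP-positive libraries, against -2.07, 0.96 and 0.14 in EGFP-negative libraries. It averaged 0.32 ± 0.61 (SD, n = 3) in EGFP-positive libraries and -0.32 ± 1.56 (SD, n = 3) in EGFP-negative libraries, and the groups overlapped. The difference of 0.65 was larger than the SD of the EGFP-positive libraries and smaller than that of the EGFP-negative libraries, and it was -0.22 once EGFP-negative replicate 1 was left out. With 2 other ways of choosing probe sets, and with each of the 10 members left out in turn, the value in EGFP-negative replicate 1 stayed between -2.66 and -1.64. That was below the lowest value of each other library, which was -0.80 in EGFP-positive replicate 3. These settings reuse the same array, so they cannot test whether the value is a property of that 1 library. EGFP-negative replicate 1 had 6182 probe sets above a log2 value of 6, against 7135 to 7621 in the other libraries.

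Pairwise, the members did not sort cleanly into their 2 classes. The mean absolute difference between the centred profiles of 2 genes was smallest for Zg16 and Slc26a3 (0.20), Agr2 and Epcam (0.28) and Epcam and Vil1 (0.36). It was largest for Fcgbp and Car4 (2.16). Its median was 0.92 over 10 pairs of goblet genes, 0.90 over 10 pairs of the others and 1.03 over 25 mixed pairs. The closeness of Zg16 to Slc26a3 was measured with the brightest Zg16 probe set, which differs from its other probe sets in EGFP-negative replicate 1.

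By the same measure, the 8 genes nearest to Muc2 among 1204 that varied by at least 2 and exceeded 6 in a library were Gsdmc2, Gmds, Sval1, Tmem30b, Tmprss2, Agr2, Aoc1 and Fcgbp, at distances of 0.56 to 0.68 against a median of 1.76. Agr2 and Fcgbp ranked 6 and 8. Gmds, an enzyme on the route to activated fucose, read 6.49, 6.06 and 3.29 in EGFP-positive libraries, against 3.77, 6.09 and 4.60 in EGFP-negative libraries. Tmprss2, a membrane serine protease of epithelia, read 6.94, 5.59 and 2.46, against 3.76, 5.34 and 2.84. All 8 had lower values in EGFP-negative replicate 1 than in EGFP-positive replicates 1 and 2. Muc2 had this too, so the choice by likeness to Muc2 favoured it.

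The 8 genes nearest to Car4 were Smagp, Smim22, Dnajc17, Fmo2, Mapk13, Phgr1, Ubxn1 and Gm5485, at distances of 0.54 to 0.66 against a median of 1.81, and none was a member. Phgr1, an epithelial gene, read 5.87, 4.68 and 2.20 in EGFP-positive libraries, against 6.00, 4.68 and 3.18 in EGFP-negative libraries. Dnajc17, a co-chaperone of the DnaJ family, read 7.72, 7.23 and 6.75, against 10.72, 7.71 and 7.48. Ubxn1, a ubiquitin-binding protein gene, read 7.85, 7.36 and 7.10, against 10.69, 7.46 and 7.47. For Dnajc17 and Ubxn1 the likeness came from EGFP-negative replicate 1, since the other 5 libraries differed by less than 1 log2 unit. Car1, the other carbonic anhydrase, ranked 172 by distance to Car4, and Vil1, at rank 62, was the nearest member.

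Other genes of goblet cells were measured from a list of genes beyond the members. Of 23 measured, 0 passed in either direction, 0 had groups that did not overlap (9.11% of all genes), and the median log2 difference was 0.09, against -0.02 over all genes. Only 15 of the 23 exceeded a log2 value of 3 in any library. With only genes above the median level kept, the median difference of the list was -0.097. EGFP-positive replicate 1 was the highest library for 13 of the 23 and EGFP-positive replicate 3 the lowest for 13, against 15.1% and 22.4% of all genes. Clca1, a secreted mucus metalloprotease, read 8.74, 8.20 and 1.44 in EGFP-positive libraries, against 3.60, 8.21 and 4.84 in EGFP-negative libraries. Spink4, a small secreted protein of goblet cells, read 9.27, 8.61 and 4.30, against 7.58, 9.18 and 6.50. Clca1 had the low value in EGFP-negative replicate 1 that Muc2 and Fcgbp had, whereas Spink4 in that library lay above both replicates 3.
Fxyd3, an ion pump regulator with the highest difference of the list (1.51), read 6.20, 5.59 and 6.71, against 3.40, 6.11 and 4.46, and Sytl2, which takes part in vesicle trafficking and had the lowest (-0.43), read 3.96, 5.34 and 4.36, against 3.80, 5.70 and 5.45. Klf4, a transcription factor of differentiated epithelium that other cell types also make, had the highest mean and read 9.29, 9.59 and 7.92, against 9.78, 9.51 and 8.72. Of other transcription factor genes on the list, Atoh1 reached 2.73 and Spdef 3.02 at most, both in EGFP-positive replicate 1, while Creb3l1 read 6.90, 5.93 and 4.78, against 5.96, 5.97 and 6.17.

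Of 27 other absorptive genes, 0 passed, 1 had higher and 0 had lower groups that did not overlap (3.07% and 6.04% of all genes), and the median difference was 0.07. The 1 gene was Slc26a2, a sulfate transporter, at 7.27, 6.55 and 6.52 in EGFP-positive libraries, against 4.87, 6.37 and 6.26 in EGFP-negative libraries. Of the 27 genes, 22 exceeded a log2 value of 3 in any library. With only genes above the median level kept, the median difference was -0.048. Saa1, an acute phase protein gene, had the lowest difference (-1.21) and read 7.42, 4.80 and 1.82, against 7.80, 6.04 and 3.84. Guca2a, the gene of guanylin, read 8.64, 7.40 and 3.66, against 7.77, 7.46 and 4.92.
Krt20, a keratin of mature colonocytes, read 5.63, 6.34 and 2.84, against 6.30, 5.58 and 2.78, and Fabp2, a fatty acid binding protein, read 6.43, 6.51 and 1.75, against 6.53, 5.70 and 1.72. For Krt20 and Fabp2 the replicates 3 of both labels were low and the other 4 libraries alike. Plac8, which immune cells also express, had the highest mean of the list, at 9.31, 9.0 and 7.59, against 9.86, 9.40 and 9.09. Genes other than those of the rule for named genes (Clca1, Spink4, Atoh1, Spdef, Creb3l1, Guca2a, Krt20 and Fabp2) were chosen after their values were seen.

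Of 33 other general epithelial genes, 0 passed, 0 had groups that did not overlap (9.11% of all genes), and the median difference was 0.22. EGFP-positive replicate 1 was the highest library for 25 of them and EGFP-positive replicate 3 the lowest for 28, against 15.1% and 22.4% of all genes. Of the 33 genes, 28 exceeded a log2 value of 3 in any library. With only genes above the median level kept, the median difference was 0.10. Krt8, a keratin of simple epithelia, had the highest mean, at 11.47, 11.00 and 9.67 in EGFP-positive libraries, against 10.89, 10.49 and 9.79 in EGFP-negative libraries. Tmprss2 had the highest difference (1.02) and Phgr1 the lowest (-0.37).
Krt8 is also made by mesothelium, the outer lining of the gut. The 10 mesothelial genes averaged 8.70, 8.33 and 6.31 in EGFP-positive libraries, against 8.46, 7.87 and 6.52 in EGFP-negative libraries, and EGFP-positive replicate 3 was the lowest library for all 10. Upk3b, a uroplakin, read 11.15, 10.02 and 8.45, against 10.94, 9.63 and 8.52. Mesothelial levels thus moved with those of the other general epithelial genes across the libraries. In EGFP-negative replicate 1 the mesothelial genes deviated from their means by 0.76 on average. There the goblet members deviated by -0.79 and the other goblet genes by -0.34. The part of mesothelium in the Krt8 values was not tested.

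Enteroendocrine and tuft cell genes were mostly dim. Of 13 enteroendocrine genes 4 exceeded a log2 value of 3 in any library, and of 11 tuft cell genes 3 did. Pyy, the gene of the gut hormone peptide YY, had the highest difference of its list (1.46) and read 5.83, 6.95 and 2.68 in EGFP-positive libraries, against 2.81, 6.12 and 2.15 in EGFP-negative libraries. Of the 13 enteroendocrine genes 1 had higher groups that did not overlap (3.07% of all genes). It was Chga, at 2.42, 2.81 and 4.56 in EGFP-positive libraries, against 1.88, 2.25 and 1.62 in EGFP-negative libraries. Its highest value lay in EGFP-positive replicate 3, the library highest in pan-neuronal genes. Of the 11 tuft cell genes 1 had lower groups that did not overlap (6.04% of all genes). The tuft cell gene was Alox5ap, which macrophages also express, at 6.37, 2.34 and 2.02, against 7.72, 8.41 and 7.17. Of 16 genes of the crypt base and of dividing cells 0 passed, with a median difference of 0.01. In at least 1 library, 11 exceeded a log2 value of 3 and 7 exceeded 6. Lgr5, Ascl2 and Olfm4 of this list, named after their values were seen, reached 1.56, 1.74 and 1.77 at most.
The small intestinal genes served as a check of region, and 13 of the 15 listed were measured. Apart from Lyz1, a lysozyme that macrophages also make, the 12 others peaked at 1.33 to 3.36. Lyz1 read 11.15, 8.76 and 8.10, against 12.82, 12.56 and 11.30. It was the 1 gene of the 13 with lower groups that did not overlap (6.04% of all genes). The 12 genes of this list other than Lyz1 were thus dim in all 6 libraries. Fabp2, which was placed on the absorptive colonocyte list, was not among them.

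Some secretory genes were high in both libraries numbered 2, whatever their label, and low in the others; the 3 described here were chosen after their values were seen. Ang4, an antimicrobial ribonuclease of deep crypt goblet cells, read 2.19, 6.13 and 0.34 in EGFP-positive libraries, against 1.54, 5.97 and 0.28 in EGFP-negative libraries. Retnlb, a secreted goblet cell protein related to resistin, read 2.88, 6.61 and 0.49, against 2.42, 6.60 and 1.24. Insl5, an insulin-like hormone of colonic enteroendocrine cells, read 2.66, 5.97 and 0.84, against 2.17, 5.69 and 2.10. Within the pair numbered 2 the EGFP-positive library differed by at most 0.28 for these 3 genes. Muc2, in contrast, was higher in EGFP-positive replicate 1, at 10.60, than in either replicate 2, at 8.80 and 9.20.

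**Figure D3:**
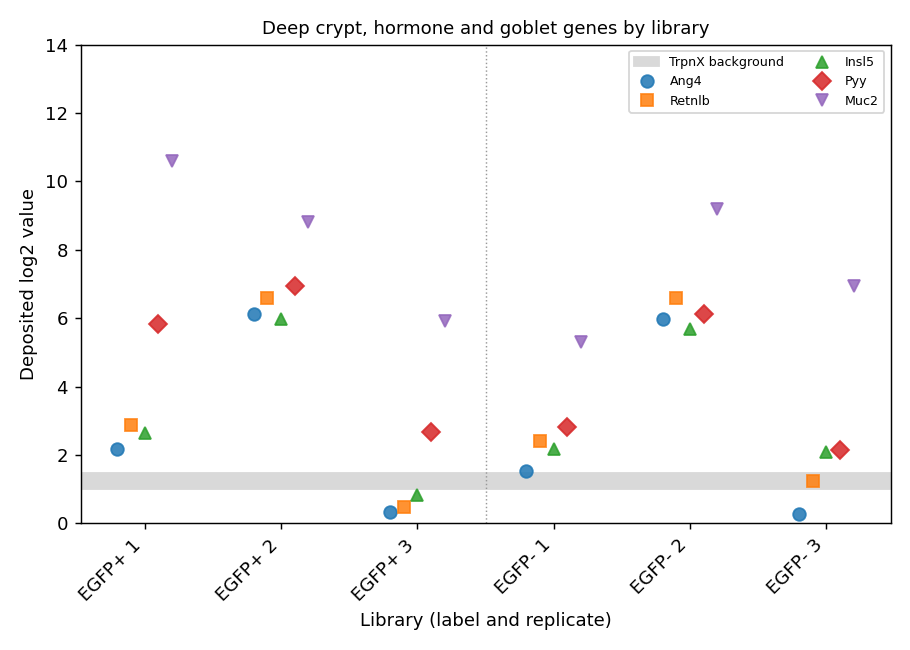
Deposited log2 values (y axis) of Ang4, Retnlb, Insl5, Pyy and Muc2 by library (x axis), 1 point per gene and library; the grey band is the TrpnX background of 1.00 to 1.48. Ang4, Retnlb and Insl5 read 5.69 to 6.61 in both libraries numbered 2 and at most 2.88 in the other 4.

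**Figure D4:**
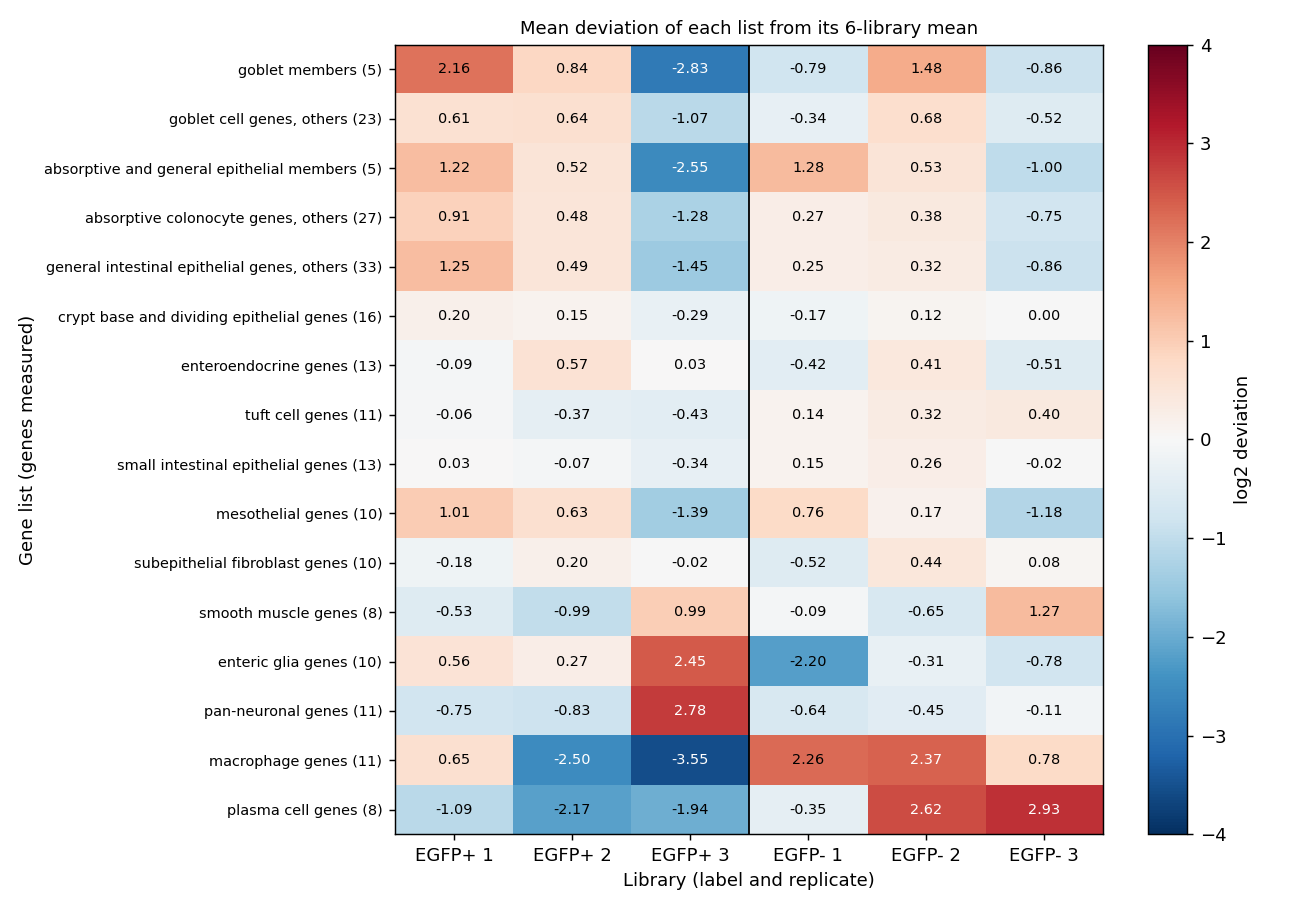
Mean log2 deviation of the genes of each list from their own mean over the 6 libraries (colour and printed value), with lists on the y axis (number of genes measured) and libraries on the x axis. The member, other goblet, other absorptive, other general epithelial and mesothelial lists are lowest in EGFP-positive replicate 3, where the pan-neuronal and enteric glia lists are highest.

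Markers of resident cells ran against the epithelial genes in some libraries. The 11 pan-neuronal genes averaged 2.60, 2.52 and 6.14 in EGFP-positive libraries, against 2.72, 2.91 and 3.25 in EGFP-negative libraries, so the library highest in neuronal genes was the lowest for 9 of the 10 members. The 10 enteric glia genes averaged 7.08, 6.79 and 8.97, against 4.31, 6.21 and 5.74, with Kcna2, a potassium channel gene, at 8.32, 8.17 and 10.27, against 3.76, 6.92 and 6.28. The 8 smooth muscle genes averaged 9.30, 8.84 and 10.82, against 9.74, 9.18 and 11.10, with both replicates 3 highest. The part of these cell types in the members' levels was not tested.
Lists of plasma cell, macrophage and subepithelial fibroblast genes were followed next. The 3 lists do not place their cells in the wall, although each cell type occurs in the lamina propria, under the epithelium. The 8 plasma cell genes, whose cells are abundant there, averaged 3.59, 2.51 and 2.73 in EGFP-positive libraries, against 4.32, 7.30 and 7.61 in EGFP-negative libraries, and 6 of the 8 had lower groups that did not overlap (6.04% of all genes). The 11 macrophage genes averaged 6.37, 3.22 and 2.17, against 7.99, 8.09 and 6.50, and 6 had lower groups that did not overlap. All 11 macrophage genes were lowest in EGFP-positive replicate 3, as 9 of the 10 members were. The 10 subepithelial fibroblast genes averaged 4.59, 4.97 and 4.75, against 4.25, 5.21 and 4.85, with a median difference of 0.07. Jchain, the antibody joining chain, read 2.86, 0.16 and 0.13 in EGFP-positive libraries, against 5.25, 10.33 and 8.71 in EGFP-negative libraries. Plasma cell genes were highest on average in EGFP-negative replicates 2 and 3, and among EGFP-positive libraries in replicate 1, where Muc2 was highest too. The part of plasma cells, macrophages and fibroblasts in the members' levels was not tested.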

How the data were processed

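The 6 libraries were measured on 1-colour arrays. Each probe set has a deposited log2 value per library, made by the authors with RMA per the submitters' processing notes; version and settings are not given in the sources used here, and the scale was read off the values (0.05 to 15.2). Medians near 2 and unequal upper quartiles (4.08 to 4.86) are unusual for RMA, so differences between dim values were read with caution. Symbols came from the array's platform annotation: 34945 probe sets had 1 symbol, 932 several and 9160 none, beside 64 controls. Each gene was represented by its probe set with the highest mean.

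The test was limma 3.58.1 under R 4.3.3 (linear fit with eBayes, two-sided, Benjamini-Hochberg over all genes, threshold 0.05). The code was run on simulated data without pairing and with less spread than most members had. That run cannot show how the test behaves at the members' spread. Differences are EGFP-positive minus EGFP-negative. Lists are given as counts and medians with no test. Figures used Python 3.11.15 and matplotlib 3.10.9. Named genes were the 10 members, of each list the genes with the highest and lowest difference and the highest mean, and the 8 genes nearest to Muc2 and to Car4. The text prints those of the lists that bear on the epithelium. Members, lists and tests were chosen with earlier results of these data known. Nothing beyond the word biological says how separate the replicates were, so p-values measure the spread between these pooled libraries, and the number of arrays limits the precision.

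Same-numbered libraries deviated together from their group means (r = 0.36, 0.32 and 0.42 over 18193 genes for numbers 1, 2 and 3, and -0.01 at most for unlike numbers), so the numbers were taken as pairs from the data; the labels do not state a pairing. Alternatives were 3 scalings, a replicate block, other variances, other probe set choices, a filter on dim genes and leaving out each library.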

Additional observations from a re-analysis of the deposited data

How the results depend on the processing

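No member passed the adjusted threshold under any of 14 alternatives. The 261 alternative values covered members, list medians, the goblet contrast and the count of genes. Of these, 239 kept their direction (members), kept the same count (genes past the threshold) or moved by less than the replicate spread. Further, 18 member differences turned their sign. The last 4 values moved, and the count of genes without EGFP-positive replicate 1 was among them. Sign turns were counted for members only. List medians and the contrast could turn their sign within the replicate spread, as the contrast did without EGFP-negative replicate 1 (-0.22, against 0.65). Leaving out 1 library moved the log2 differences over -0.51 to 1.13 (Agr2), -1.49 to 0.78 (Car1), -2.49 to -0.58 (Car4), -0.31 to 1.24 (Epcam), -1.04 to 2.35 (Fcgbp), 0.21 to 2.55 (Muc2), -2.01 to 0.76 (Slc26a3), -1.40 to 1.05 (Tff3), -0.91 to 0.96 (Vil1) and -1.95 to 0.68 (Zg16), so Muc2 and Car4 alone kept their sign. Signs turned without EGFP-positive replicate 3 for Car1, Slc26a3, Tff3, Vil1 and Zg16, without EGFP-positive replicate 1 for Agr2, Epcam and Fcgbp, and without EGFP-positive replicate 2 for Agr2 (-0.27) and Fcgbp (-0.38). They also turned without EGFP-negative replicate 1 for Agr2 (-0.27), Car1 (0.51), Fcgbp (-0.76) and Vil1 (0.048), without EGFP-negative replicate 2 for Tff3 (0.29) and Vil1 (0.048), and without EGFP-negative replicate 3 for Agr2 (-0.17). The count of genes past the threshold was 0 except without EGFP-positive replicate 1, where 2 passed, Ccr2 and Fermt3; leaving out single libraries gave 0 to 2. Centring on 46 ribosomal protein genes moved the median of all genes to 0.32, against -0.02, and with it Vil1 to 0.13 and the median differences of crypt base, small intestinal and tuft cell genes to 0.34, 0.28 and 0.30. The replicate block, which uses the pairing by number, changed no call at the adjusted threshold: 0 genes passed, and the Car4 difference of -1.54 had an SE of 0.20, against 1.20 without the block (unadjusted p = 0.00188, limma adjusted p = 0.661). The filter on dim genes left too few enteroendocrine, small intestinal and tuft cell genes for a median. The contrast of goblet with other members ran from -0.22 to 1.29 without single libraries. Levels near the TrpnX background, such as Slc26a3 in EGFP-positive replicate 3, limit how large a difference can be read.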

Other observations

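Over all genes, 13 had both libraries numbered 2 at least 2 log2 units above each of the other 4, 9 had this for number 3 and 0 for number 1. Beside Ang4, Retnlb and Insl5, the 13 held Adipoq, the adipocyte hormone gene, at 1.20, 8.09 and 0.41 in EGFP-positive libraries, against 2.88, 9.45 and 3.62 in EGFP-negative libraries. They also held Retn, the resistin gene, at 2.12, 6.79 and 1.06 in EGFP-positive libraries, against 3.03, 8.57 and 1.76 in EGFP-negative libraries. These genes were chosen after their values were seen, and what the libraries numbered 2 share was not tested.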
